A study of Mus musculus with 14 samples.

Results

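Tnfrsf19, Lyn, Inka2, Art3, Pkp2, Prune2 and Mycn are 7 of the 32830 genes in the expression table of a mouse cortex study. They were taken by their symbols, and Inka2 is listed there under its older symbol Fam212b. They were chosen by their measured values, as genes outside the known layer pathways whose 3 upper layer and 3 deep layer astrocyte libraries do not overlap. That difference between astrocyte layers is therefore given below as a description, with no test. All 7 passed the filter on low values, a normalised read count of 10 in at least 2 libraries, which 22575 genes passed.

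The mice were of the SW strain, carried the Aldh1l1-GFP reporter and were 14 days old. The reporter uses the Aldh1l1 promoter, active in astrocytes, so the sorted astrocytes are the cells in which that promoter drives GFP. Upper layers (UL) and deep layers (DL) of the cerebral cortex had been separated by hand dissection. The 6 groups were UL astrocytes and DL astrocytes (sorted GFP-positive cells, 3 libraries each), UL non-astrocytes and DL non-astrocytes (sorted GFP-negative cells, 2 libraries each), and UL bulk tissue and DL bulk tissue (whole layer tissue, 2 libraries each). Both sorted fractions had gone through papain dissociation, exclusion of dead cells by DAPI and flow sorting. How many animals a library holds, and whether replicates are different animals, is not given in the sources used here. The p-values below therefore cover the spread between libraries only, which may be technical.

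Each library held between 18226457 and 30316765 reads in genes. The 12 astrocyte markers summed to between 1039270 and 1524850 normalised read counts in the astrocyte libraries, and to between 27329 and 35126 in the non-astrocyte libraries. DL astrocytes replicate 2 stood apart in its level of Xist, an RNA of the X chromosome, at 135481 against 36833 to 66391 in the other astrocyte libraries. Replicate 1 of each bulk group held few reads of the Y-linked gene Eif2s3y, with 6.45 in UL and 12.9 in DL bulk tissue, against 615 to 2821 in the other 12 libraries.

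The genes act at different places in a cell. Tnfrsf19, also called TROY, is an orphan member of the tumour necrosis factor receptor family, whose cytoplasmic tails recruit TRAF adaptors, and it can take part in the Nogo receptor complex that restrains axon growth. Lyn is a tyrosine kinase of the SRC family, known above all from B cells, myeloid cells and microglia. Inka2 and its relative Inka1 bind the kinase PAK4 and inhibit it. Art3 belongs to the ecto-ADP-ribosyltransferases, enzymes on the cell surface that move ADP-ribose from NAD onto proteins, although human ART3 lacks residues of the active-site motif. Pkp2, plakophilin 2, is an armadillo-repeat protein that links desmosomal cadherins to desmoplakin, best known from heart muscle. Prune2 carries a BCH domain, a fold shared with BNIP2 and caytaxin (Atcay). Mycn is a transcription factor that pairs with Max, binds the E-box CACGTG and is known for its part in the growth of neural progenitors. Upper cortical layers are the later born ones, and protoplasmic astrocytes are found in both upper and deep layers.

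Promoter sequences, from 250 bases before to 50 bases after an annotated start, are shown for the genes that the layer results turn on and for which RefSeq (GRCm38.p6) gave one. RefSeq held 9 promoters for 5 of the 7 genes, with 3 for Art3, 2 each for Inka2 and Tnfrsf19 and 1 each for Prune2 and Mycn. Capitals mark the motifs that were found.
Tnfrsf19 chr14:61037938-61038237 (minus strand): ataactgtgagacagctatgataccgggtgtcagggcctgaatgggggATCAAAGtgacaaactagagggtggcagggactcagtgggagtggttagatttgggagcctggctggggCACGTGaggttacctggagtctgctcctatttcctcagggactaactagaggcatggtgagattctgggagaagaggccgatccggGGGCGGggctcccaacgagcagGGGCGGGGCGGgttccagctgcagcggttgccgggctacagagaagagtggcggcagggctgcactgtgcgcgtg
Inka2 chr3:105704349-105704648 (plus strand): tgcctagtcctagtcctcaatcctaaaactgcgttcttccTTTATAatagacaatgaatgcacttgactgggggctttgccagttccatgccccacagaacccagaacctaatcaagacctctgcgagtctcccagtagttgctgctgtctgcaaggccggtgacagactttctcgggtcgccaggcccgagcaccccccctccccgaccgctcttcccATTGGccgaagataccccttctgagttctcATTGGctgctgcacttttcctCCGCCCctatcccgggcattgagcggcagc
Prune2 chr19:16955868-16956167 (plus strand): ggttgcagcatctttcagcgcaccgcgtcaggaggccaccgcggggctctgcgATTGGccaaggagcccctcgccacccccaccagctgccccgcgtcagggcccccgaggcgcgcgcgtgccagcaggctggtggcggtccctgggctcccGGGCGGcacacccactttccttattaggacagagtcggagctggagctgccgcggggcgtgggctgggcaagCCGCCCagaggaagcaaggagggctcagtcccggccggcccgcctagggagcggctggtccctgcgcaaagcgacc
Mycn chr12:12941787-12942086 (minus strand): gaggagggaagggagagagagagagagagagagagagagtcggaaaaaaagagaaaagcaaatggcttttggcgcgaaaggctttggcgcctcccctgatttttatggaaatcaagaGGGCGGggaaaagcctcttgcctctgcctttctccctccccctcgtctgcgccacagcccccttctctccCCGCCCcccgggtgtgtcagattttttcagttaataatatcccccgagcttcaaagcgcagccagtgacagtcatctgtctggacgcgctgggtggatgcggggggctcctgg
Searched on both strands were the MYC and MAX E-box CACGTG, the cyclic AMP response element TGACGTCA, the GLI site GACCACCCA, the TCF and LEF site CTTTGAT, the AP-1 site TGANTCA, the NFI palindrome TTGGC and GCCAA with any 5 bases between, the TATA box TATAAA, the GC box GGGCGG and the CCAAT box CCAAT. The GC box stood in 5 of the 9 promoters, those of Inka2 (both), Mycn, Prune2 and Tnfrsf19, against 35.7% of all 32851 promoters. The E-box stood in 1 promoter, of Tnfrsf19 (7.15% of all promoters), and so did the TCF and LEF site (3.73%). The CCAAT box stood in those of Inka2 and Prune2 (37.4%), and the TATA box in 2 promoters of Art3 and 1 of Inka2 (13.6%). In the Tnfrsf19 promoter, GC boxes next to each other share letters. The cyclic AMP response element, GLI site, AP-1 site and NFI palindrome, present in 1.79%, 0.253%, 7.81% and 0.0365% of promoters, were not in the 9 windows. The Prune2 promoter was the richest of the 4 shown, at 72.7% G and C with 28 CpG pairs. The Inka2, Tnfrsf19 and Mycn promoters shown had 56.3%, 60.7% and 56.7% G and C and 12, 13 and 14 CpG pairs. Over all promoters the median was 52.7% G and C with 7 CpG pairs, and the upper quartile was 61.7% with 20 pairs.

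Values are normalised read counts, which are reads per gene divided by 1 size factor per library. Errors beside means are SDs over libraries. Differences are log2(value + 1) differences from limma, fitted over all 22575 genes with Benjamini-Hochberg adjustment, and calls were made where that adjusted p lay under 0.05. Tests between fractions weigh both layers equally. The 3 comparisons between fractions share libraries pair by pair, so their results for a gene are not independent of each other. Changes in bulk tissue, and in any sorted pool, can come from fewer cells of a type or from less RNA per cell, which cannot be told apart.

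Tnfrsf19 (ENSMUSG00000060548, chr14:60963875-61046490, minus strand, GRCm38) was the receptor of the set and its most abundant gene in astrocytes. It had 10176, 12522 and 14518 normalised read counts in UL astrocytes, against 6327, 6722 and 6330 in DL astrocytes. Non-astrocytes held 1545 and 2015 in UL and 1749 and 1891 in DL, and bulk tissue held 2691 and 2820 in UL and 1812 and 1824 in DL. Every astrocyte library lay above every library of the other fractions, and the UL and DL bulk libraries did not overlap, while the non-astrocyte layers did. Astrocytes averaged 9433 ± 3538 (SD, n = 6), against 1800 ± 202 in non-astrocytes (n = 4), a log2 difference of 2.31 (SE 0.119), or 4.97-fold (limma adjusted p = 1.56e-10). Against bulk tissue, at 2287 ± 544 (n = 4), the difference was 1.99 (SE 0.119, limma adjusted p = 8.57e-10). Non-astrocytes were lower than bulk tissue by a log2 difference of -0.32 (SE 0.131, limma adjusted p = 0.0443), but scaling to total reads ended that call and turned the sign (0.05, adjusted p = 0.701). Over the other settings the adjusted p began at 0.0161, and the call was kept in 4 of the 14 fits that left out a library, those without UL astrocytes replicate 1 or 3, DL astrocytes replicate 2 or UL non-astrocytes replicate 2.

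Lyn (ENSMUSG00000042228, chr4:3678115-3813122, plus strand) was the intracellular kinase of the set. UL astrocytes had 770.5, 628.9 and 739.4 normalised read counts, against 397.7, 323.4 and 338.4 in DL astrocytes. Non-astrocytes had 5108 and 6947 in UL and 5725 and 6330 in DL, and bulk tissue had 418.4 and 378.6 in UL and 356.0 and 398.2 in DL. All 4 non-astrocyte libraries stood far above the rest, and their layers overlapped, as did those of bulk tissue. Astrocytes averaged 533.1 ± 204 (SD, n = 6), against 6027 ± 790 in non-astrocytes (n = 4), a log2 difference of -3.58 (SE 0.124, limma adjusted p = 1.99e-12), so that non-astrocytes were 11.96-fold higher. Lyn was also 15.4-fold higher in non-astrocytes than in bulk tissue (log2 difference 3.95, SE 0.136, limma adjusted p = 9.54e-12). Astrocytes were above bulk tissue, which averaged 387.8 ± 26.7 (n = 4), by 0.37 (SE 0.124, limma adjusted p = 0.0167). The call rests on UL, with means of 713.0 in astrocytes and 398.5 in bulk tissue, whereas the DL means were 353.2 and 377.1. The UL astrocyte libraries are among those by which the gene was chosen. That call was lost without UL bulk tissue replicate 2 (adjusted p = 0.0649) or DL bulk tissue replicate 1 (0.0703), and scaling to total reads moved the difference to 0.55, where the adjusted p was lowest (0.00316).

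Because Lyn is known from microglia, its level in astrocytes was set beside 12 microglia markers. Lyn in UL astrocytes stood at 11.8% of its mean in UL non-astrocytes, and in DL astrocytes at 5.86% of its mean in DL non-astrocytes. The 12 microglia markers stood between 0.715% and 2.32% in UL astrocytes (median 1.21%) and between 0.577% and 1.98% in DL astrocytes (median 0.950%). Their summed level ran from 1602 to 4062 in UL astrocytes and from 1957 to 3301 in DL astrocytes, which are overlapping ranges. Of the 12 markers, 0 were apart between the layers, against 16.0% of all genes. The same sum reached 190775 to 278097 in the sorted non-astrocytes, and 9416 to 10685 in the bulk libraries. No microglia marker was at 0 in a whole group. The part of the microglia markers in the Lyn values was not tested. The exons of Lyn share 248 bases with the antisense lincRNA Gm26857, and whether the counting used strand is not given in the sources used here. Gm26857 had 349, 235 and 273 in UL astrocytes, against 430, 407 and 393 in DL astrocytes, the opposite order to Lyn.

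Inka2 (ENSMUSG00000048458, chr3:105704599-105720842, plus strand), the PAK4 inhibitor, had 2990, 3386 and 4826 normalised read counts in UL astrocytes, against 1315, 1091 and 1529 in DL astrocytes. In non-astrocytes it had 927.4 and 955.0 in UL and 806.8 and 743.9 in DL, and in bulk tissue 4709 and 5513 in UL and 2904 and 2887 in DL. UL exceeded DL without overlap in all 3 fractions. The highest library was UL bulk tissue replicate 2, followed by UL astrocytes replicate 3, and the 4 non-astrocyte libraries were the lowest. Astrocytes averaged 2523 ± 1467 (SD, n = 6), against 858.3 ± 99.8 in non-astrocytes (n = 4), a log2 difference of 1.35 (SE 0.140, limma adjusted p = 5.09e-07). They stood below bulk tissue, at 4003 ± 1321 (n = 4), with a log2 difference of -0.82 (SE 0.140, limma adjusted p = 0.000104). Non-astrocytes were 4.49-fold below bulk tissue (log2 difference -2.17, SE 0.154, limma adjusted p = 9.98e-09).

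Art3 (ENSMUSG00000034842, chr5:92331827-92414628, plus strand), of the cell surface ADP-ribosyltransferase family, had 751.4, 745.5 and 748.3 normalised read counts in UL astrocytes, against 323.4, 324.8 and 202.0 in DL astrocytes. Non-astrocytes had 1473 and 1979 in UL and 1666 and 1749 in DL, and bulk tissue had 197.2 and 133.2 in UL and 117.5 and 155.2 in DL. The UL astrocyte libraries lay within a few counts of each other, all 4 non-astrocyte libraries were the highest, and the layers of non-astrocytes and of bulk tissue overlapped. Astrocytes averaged 515.9 ± 259 (SD, n = 6), against 1717 ± 209 in non-astrocytes (n = 4), so that non-astrocytes were 3.74-fold higher (log2 difference -1.90, SE 0.170, limma adjusted p = 8.96e-08). Against bulk tissue, at 150.8 ± 34.6 (n = 4), astrocytes were higher by 1.62 (SE 0.170, limma adjusted p = 6.28e-07) and non-astrocytes by 3.52 (SE 0.186, limma adjusted p = 4.20e-10). Art3 stood at 43.4% of its non-astrocyte mean in UL astrocytes and at 16.6% in DL astrocytes. On the same measure 10 mural markers, of pericytes and vascular muscle, stood between 1.04% and 32.0% in UL astrocytes (median 1.24%) and between 0.391% and 31.5% in DL astrocytes (median 1.80%). Of these 10, 2 were higher in UL astrocytes without overlap and 0 lower (median log2 difference 0.31), against 8.7% and 7.31% of all genes. The part of the mural markers in the Art3 values was not tested. Its exons share 133 bases with Cxcl10 on the other strand, a chemokine gene that had 5.73, 6.54 and 12.1 in UL astrocytes and 8.26, 41.1 and 7.40 in DL astrocytes.

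Pkp2 (ENSMUSG00000041957, chr16:16213318-16272712, plus strand), the desmosomal plakophilin, had 81.2, 67.6 and 65.0 normalised read counts in UL astrocytes, against 14.2, 8.51 and 3.17 in DL astrocytes. Non-astrocytes had 16.1 and 11.7 in UL and 4.86 and 9.09 in DL, and bulk tissue had 32.3 and 37.1 in UL and 28.2 and 27.7 in DL. The UL astrocytes were the highest 3 of the 14 libraries, and the DL astrocytes lay within or below the range of the non-astrocytes. The astrocyte values rest on 206 reads in the UL libraries and 21 reads in the DL libraries. Over both layers, astrocytes averaged 39.9 ± 34.9 (SD, n = 6), against 10.4 ± 4.72 in non-astrocytes (n = 4), a log2 difference of 1.21 (SE 0.353, limma adjusted p = 0.00703) in which the libraries of the fractions overlap. The difference between astrocytes and bulk tissue, at 31.3 ± 4.34 (n = 4), did not pass (-0.38, SE 0.353, limma adjusted p = 0.359). Non-astrocytes were below bulk tissue by a log2 difference of -1.59 (SE 0.387, limma adjusted p = 0.00220), which a pseudocount of 10 moved to -1.04.

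Prune2 (ENSMUSG00000039126, chr19:16956118-17223932, plus strand), the BCH domain gene, had lower values in UL than in DL, without overlap, in astrocytes and in bulk tissue. It had 258.8, 236.5 and 259.0 normalised read counts in UL astrocytes, against 509.9, 709.2 and 513.9 in DL astrocytes. Non-astrocytes had 428.4 and 568.1 in UL and 514.7 and 559.3 in DL, and bulk tissue had 657.1 and 828.4 in UL and 1242 and 1389 in DL. The DL bulk libraries were the highest, the UL astrocytes the lowest, and the non-astrocyte layers overlapped. Astrocytes averaged 414.5 ± 193 (SD, n = 6), against 517.6 ± 63.9 in non-astrocytes (n = 4), with a log2 difference of -0.44 (SE 0.139, limma adjusted p = 0.0114). That difference rests on UL, with means of 251.4 in astrocytes and 498.3 in non-astrocytes, whereas the DL means were 577.6 and 537.0. The UL astrocyte libraries are among those by which the gene was chosen. Without UL non-astrocytes replicate 2 the difference was -0.34 and did not pass (adjusted p = 0.0608; lowest over the other settings 0.000316). Against bulk tissue, at 1029 ± 343 (n = 4), Prune2 fell by 1.38 on the log2 scale in astrocytes (SE 0.139, limma adjusted p = 3.98e-07) and by 0.93 in non-astrocytes (SE 0.152, limma adjusted p = 7.46e-05, moved to -0.56 by scaling to total reads). Oligodendrocyte markers moved the same way between the layers: their sum ran from 3767 to 5020 in UL astrocytes, against 5058 to 6254 in DL astrocytes. Of the 10 markers, 7 were lower in UL without overlap and 0 higher (median log2 difference -1.16), against 7.31% and 8.7% of all genes. In bulk tissue that sum ran from 39650 to 43333 in UL, against 131609 to 155217 in DL. In non-astrocytes it was also lower in UL, at 55387 to 63435, against 117880 to 159089 in DL, while the Prune2 values of those layers overlapped. Their part in the Prune2 difference was not tested.

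Mycn (ENSMUSG00000037169, chr12:12936093-12941914, minus strand), the transcription factor, was close to absent from astrocytes. UL astrocytes had 1.91, 0 and 0 normalised read counts, against 14.2, 8.51 and 7.40 in DL astrocytes. Non-astrocytes had 68.3 and 109.5 in UL and 70.4 and 87.3 in DL, and bulk tissue had 352.0 and 463.8 in UL and 260.8 and 242.0 in DL. All 6 astrocyte libraries were below all others and bulk tissue was the highest. The astrocyte values rest on 2 reads in the UL libraries and 25 reads in the DL libraries, too few to give the size of the difference. In bulk tissue the order of the layers was the opposite, without overlap. Astrocytes averaged 5.33 ± 5.67 (SD, n = 6), against 83.9 ± 19.1 in non-astrocytes (n = 4) and 329.7 ± 101.5 in bulk tissue (n = 4). The log2 differences were -4.42 (SE 0.336, limma adjusted p = 1.37e-08) from non-astrocytes and -6.36 (SE 0.336, limma adjusted p = 2.01e-10) from bulk tissue, and their size depends on the pseudocount, since 10 in its place gave -2.67 and -4.50. Non-astrocytes were lower than bulk tissue by a log2 difference of -1.94 (SE 0.368, limma adjusted p = 0.000294). Neuron markers summed to 1676 to 2106 in UL astrocytes, against 1248 to 1457 in DL astrocytes, and to 289330 to 376276 in UL bulk tissue, against 242069 to 266924 in DL bulk tissue. In non-astrocytes the sum was 13007 to 15082 in UL, against 6334 to 9580 in DL, while the Mycn values of those layers overlapped. Of the 12 neuron markers, 1 was higher and 1 lower in UL astrocytes without overlap (median log2 difference 0.25), against 8.7% and 7.31% of all genes. The part of neuron markers in the Mycn values was not tested.

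**Figure D1:**
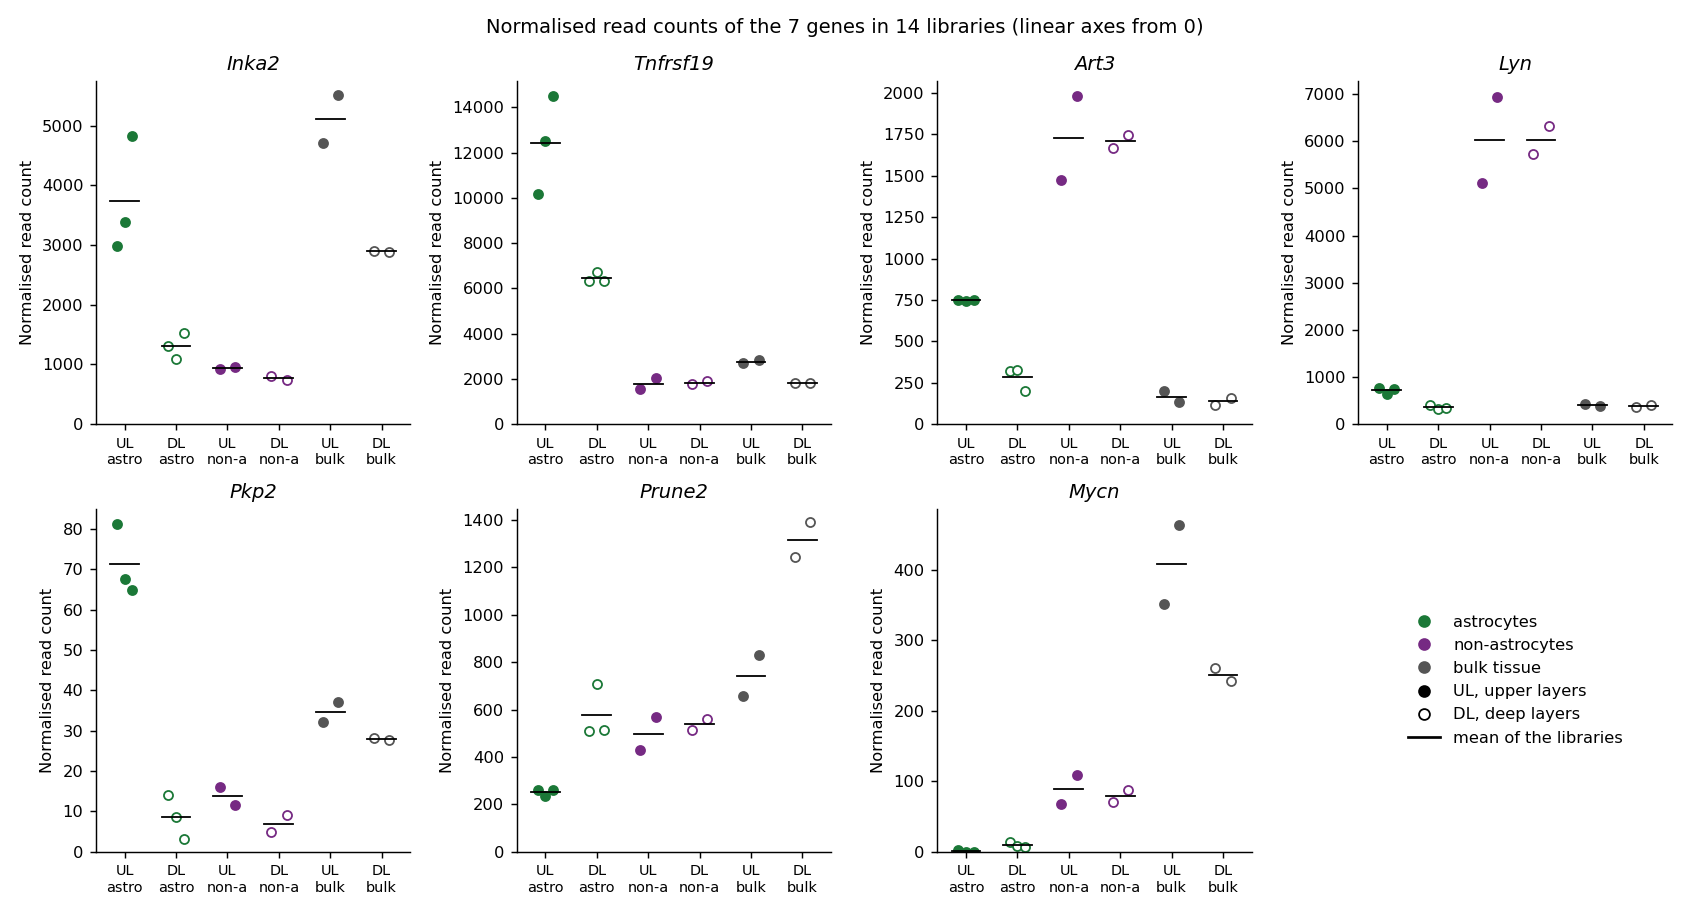
Normalised read counts (vertical axes, linear from 0) of the 7 genes in the 14 libraries, with filled points for upper and open points for deep layers and a bar at the mean of each group. Tnfrsf19 is highest in astrocytes, Lyn and Art3 in non-astrocytes, Prune2 and Mycn in bulk tissue, and the astrocyte layers are apart in every panel.

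The 7 genes differed widely in how far their astrocyte layers lay apart. The UL minus DL log2 difference was 3.09 for Pkp2, 1.49 for Inka2, 1.43 for Art3, 1.01 for Lyn and 0.93 for Tnfrsf19, and it was -1.18 for Prune2 and -2.90 for Mycn. The sizes for the genes with few reads depend on the pseudocount, and 10 in place of 1 gave 2.16 for Pkp2 and -0.90 for Mycn. Non-overlap was the rule by which they were picked, and 16.0% of the genes tested meet it (8.7% higher and 7.31% lower in UL), so nothing is read from it. Tnfrsf19 was nearest to the rule's limit, with its lowest UL library 1.51 times its highest DL library. Pkp2 was farthest, at 4.59 times, and Mycn's lowest DL library was 3.88 times its highest UL library. Among the related genes of the 7 families, the largest layer differences with overlap were in Inka1 (log2 difference 1.57), with 12.4, 9.81 and 32.0 in UL astrocytes and 14.2, 2.84 and 2.11 in DL astrocytes, and in Dsp (1.35). Same-numbered pairs gave Tnfrsf19 differences of 0.69, 0.90 and 1.20, and Pkp2 differences of 2.44, 2.85 and 3.98.

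The layer differences in the non-astrocytes and in bulk tissue come from libraries that the choice of genes did not use. In non-astrocytes, 0 of the 7 genes were called (limma), where 0.00443% of all genes were, and 0 of the 7 had an unadjusted p under 0.05, against 871 of 22575 genes. edgeR and DESeq2 also called 0 of the 7, and over all genes 7 and 138. The differences of Tnfrsf19 (-0.04, SE 0.185), Art3 (0.00, SE 0.263), Lyn (-0.02, SE 0.192), Prune2 (-0.12, SE 0.216) and Mycn (0.14, SE 0.520) were all smaller than their standard errors, and their signs turned under other settings. Inka2 (0.28, SE 0.217) and Pkp2 (0.94, SE 0.548) were higher in UL without overlap, a pattern that 11.8% of genes showed (25.5% in either direction, 13.7% lower). For all 7 the limma adjusted p was 1.0.

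In bulk tissue limma also called 0 of the 7, where 0.456% of genes were called (0.159% higher and 0.297% lower), while 3 had an unadjusted p under 0.05, against 1639 of 22575 genes. These were Inka2, at 1.76-fold (log2 difference 0.82, SE 0.217, limma adjusted p = 0.147), Tnfrsf19, at 1.52-fold (0.60, SE 0.185, adjusted p = 0.255), and Prune2, at 0.562-fold (-0.83, SE 0.216, adjusted p = 0.133). All 3 had the sign they have in astrocytes. DESeq2 called Inka2 (adjusted p = 0.0319) and Prune2 (0.0218), and a limma fit with the replicate number as a block called Inka2 (0.0360). Fitting only the 4 bulk libraries called Inka2 (0.00144), Tnfrsf19 (0.00769), Prune2 (0.00419) and Mycn (0.0462). Over all genes, DESeq2 called 428, the block 261 and the fit of only the bulk libraries 1242, against 103 in the main fit. The highest adjusted p over all settings was 0.853 for Inka2, 0.977 for Tnfrsf19, 0.661 for Prune2 and 1.0 for Mycn. Libraries of 4 genes were higher in UL bulk tissue without overlap (Inka2, Tnfrsf19, Pkp2 and Mycn; 22.4% of genes) and those of 1 were lower (Prune2; 21.3%), where 43.8% of genes did not overlap in either direction. Art3 (0.26, SE 0.263), Lyn (0.08, SE 0.192), Pkp2 (0.30, SE 0.548) and Mycn (0.68, SE 0.520) had adjusted p = 1.0 in limma. The layer differences of non-astrocytes and bulk tissue were themselves compared. Of the 7 genes, 0 passed (limma adjusted p = 0.9998 for each), where 13 of 22575 genes did. The unadjusted limma p was under 0.05 for Tnfrsf19 (-0.64) and Prune2 (0.71), against 906 of 22575 genes.

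**Figure D2:**
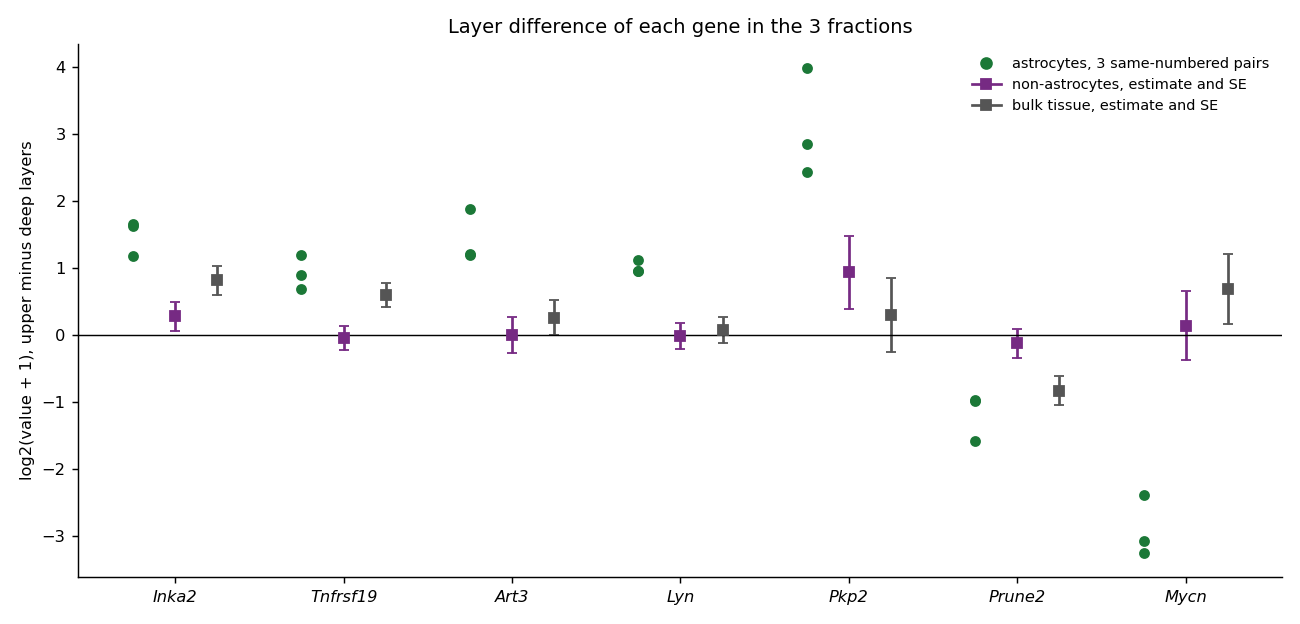
UL minus DL difference of each gene on the log2(value + 1) scale. Circles are the 3 same-numbered astrocyte pairs, shown as a description, and squares with bars are limma estimates with their SE in non-astrocytes and in bulk tissue. Non-astrocyte estimates lie near 0 for 5 genes, and bulk estimates of Inka2, Tnfrsf19 and Prune2 lie on the side of their astrocyte pairs, whereas that of Mycn lies on the other.

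Between fractions, limma called 3 of the 7 genes higher in astrocytes than in non-astrocytes (Tnfrsf19, Inka2 and Pkp2) and 4 lower (Lyn, Art3, Prune2 and Mycn), where 66.3% of all genes were called (29.6% higher and 36.8% lower). The Pkp2 call rests on UL, with means of 71.3 in astrocytes and 13.9 in non-astrocytes, against 8.62 and 6.97 in DL. The UL astrocyte libraries are among those by which the genes were chosen. Against bulk tissue, 3 were higher in astrocytes (Tnfrsf19, Art3 and Lyn), 3 lower (Inka2, Prune2 and Mycn) and Pkp2 did not pass, where 64.8% of genes were called (28.8% higher and 36.1% lower). The Lyn call rests on UL, since DL astrocytes averaged 353.2 and DL bulk tissue 377.1. Non-astrocytes against bulk tissue gave 2 higher (Lyn and Art3) and 5 lower, with 61.6% of genes called (30.5% higher and 31.1% lower). The share of the 7 called is thus set beside a background in which most genes are called. The description of the 7 as astrocyte genes holds for Tnfrsf19 by both comparisons. Lyn, Art3 and Mycn were more abundant among the GFP-negative cells in both layers. Prune2 was so in UL only, with means of 251.4 in UL astrocytes and 498.3 in UL non-astrocytes. Its DL means were 577.6 in astrocytes and 537.0 in non-astrocytes. Median log2 differences of the 7 were -0.44, -0.38 and -0.93 in these comparisons, against -0.08, -0.10 and -0.04 for all genes.

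**Figure D3:**
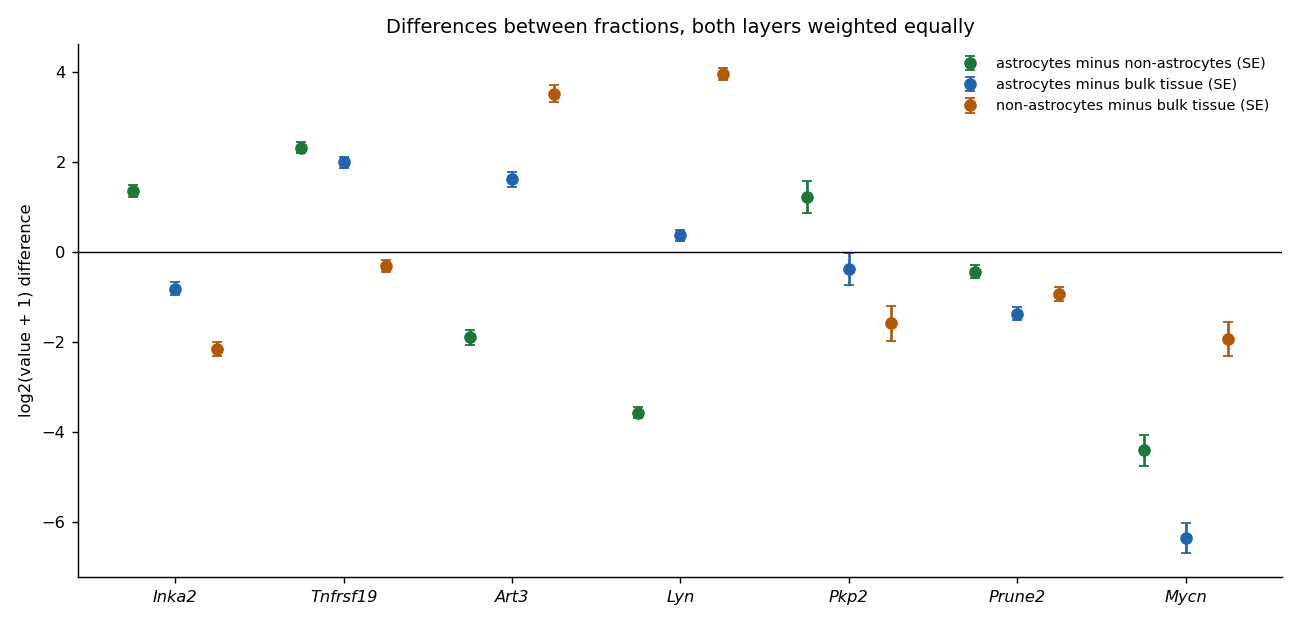
Differences between fractions on the log2(value + 1) scale, with the SE from limma, for astrocytes minus non-astrocytes, astrocytes minus bulk tissue and non-astrocytes minus bulk tissue. Tnfrsf19 lies above 0 in both astrocyte comparisons (2.31 and 1.99), and Lyn and Art3 lie below 0 against non-astrocytes and above 0 in both comparisons with bulk tissue. The estimates weigh both layers equally, and the Lyn mean of astrocytes was above that of bulk tissue in UL only.

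Levels were compared between genes as RPKM, reads in a gene per kilobase of its exons, scaled to the reads of the library. In astrocytes this level was 81.8 ± 28.6 for Tnfrsf19, higher than that of 96.4% of tested genes, and 21.7 ± 11.96 for Inka2 (90.6%). Lyn (5.43 ± 2.15) and Art3 (5.40 ± 2.71) followed and did not differ beyond their spread, and then came Prune2 (0.839 ± 0.365), Pkp2 (0.309 ± 0.274) and Mycn (0.0692 ± 0.0773; SD, n = 6 each). The level of Mycn exceeded that of only 8.96% of tested genes in astrocytes, and of 58.4% in bulk tissue, where it was 3.62 ± 1.09 (n = 4). In non-astrocytes Lyn led at 69.1 ± 3.40 (95.7%), before Art3 at 20.4 ± 1.08 and Tnfrsf19 at 17.8 ± 0.513, then Inka2 at 8.50 ± 1.59, Prune2 and Mycn together at 1.19 ± 0.0295 and 1.18 ± 0.184, and Pkp2 at 0.0937 ± 0.0512 (n = 4 each). In bulk tissue Inka2 led at 30.3 ± 9.77 (92.9%), before Tnfrsf19 at 17.5 ± 4.003 and Mycn, with Lyn at 3.45 ± 0.215 close behind Mycn and within its spread, then Prune2 at 1.84 ± 0.632, Art3 at 1.39 ± 0.307 and Pkp2 at 0.212 ± 0.0280 (n = 4 each).

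Markers of other cells were summed over the astrocyte libraries as a background to the layer differences. Sums overlapped between UL and DL astrocytes for endothelial markers (UL 1025 to 1382, DL 756 to 1133), mural markers (UL 5086 to 8195, DL 3994 to 5624), fibroblast markers (UL 911 to 1290, DL 1072 to 1430), oligodendrocyte precursor markers (UL 21409 to 26835, DL 17063 to 21669) and cell cycle genes (UL 1067 to 1478, DL 1163 to 1303). Upper layer neuron markers (UL 5402 to 6350, DL 5356 to 5685), deep layer neuron markers (UL 2942 to 3245, DL 2987 to 3386) and blood genes (UL 74.1 to 323, DL 72.3 to 162) overlapped as well. Sums of genes known to respond to dissociation did not, at 3641 to 3771 in UL and 2835 to 3063 in DL. Of these 12 genes, 3 were higher in UL and 1 lower without overlap, against 8.7% and 7.31% of all genes. The part of the neuron, oligodendrocyte and dissociation genes in the 7 layer differences was not tested. No marker in these lists was at 0 in a whole group.

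**Figure D4:**
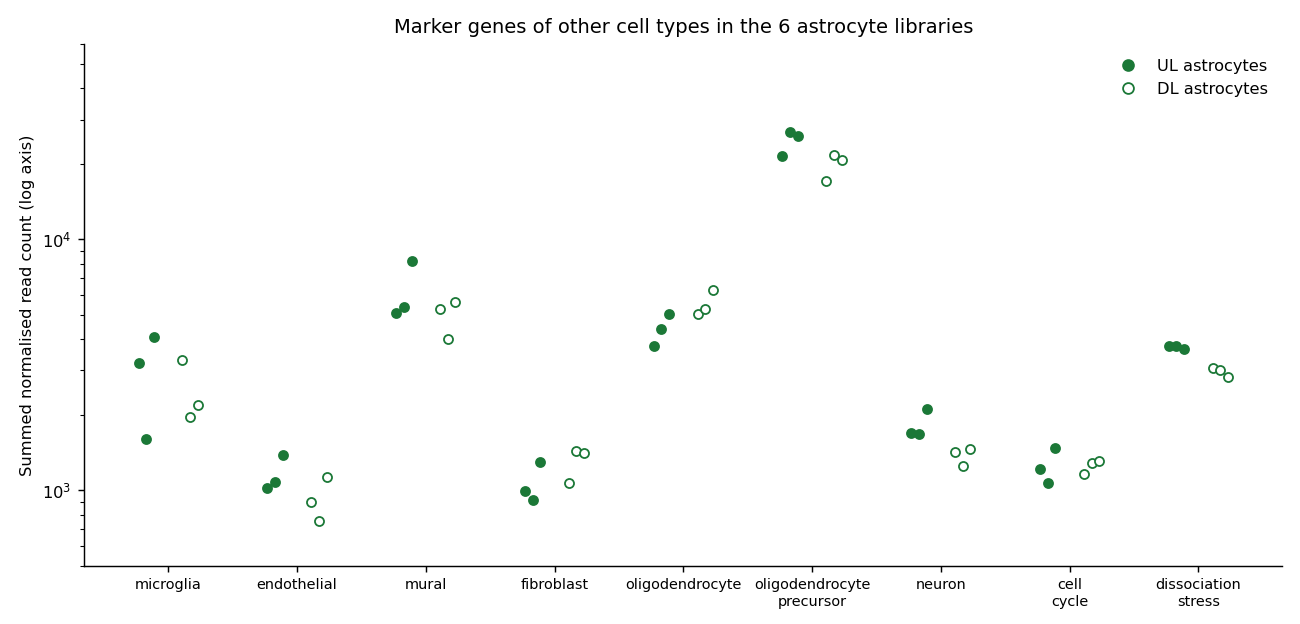
Summed normalised read counts of marker lists (log axis) in the 3 UL astrocyte libraries (filled) and the 3 DL astrocyte libraries (open). The sums of neuron and dissociation genes are higher in UL without overlap, that of oligodendrocyte markers is lower, and the others overlap.

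Relatives of the 7 genes were counted in 7 lists. Of their 65 tested members, astrocytes had 7 higher and 40 lower than non-astrocytes, and 22 higher and 23 lower than bulk tissue. Non-astrocytes had 34 higher and 11 lower than bulk tissue. Over all genes, 29.6% were called higher and 36.8% lower in the first of these comparisons, 28.8% and 36.1% in the second and 30.5% and 31.1% in the third. The counts by list below rest on 5 to 17 genes each and are set beside these shares. The last split moved to 41 and 7 when values were scaled to total reads, with 1 called gene turned in sign. Between layers limma and edgeR called 0 of the 65 in non-astrocytes and 0 in bulk tissue. Over all genes, limma called 0.00443% and 0.456%, and edgeR called 7 and 170 genes. In limma 2 and 7 of the 65 had an unadjusted p under 0.05, against 871 and 1639 of 22575 genes. DESeq2 called 0 of the 65 in non-astrocytes and 1 in bulk tissue, and over all genes 138 and 428.

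For the receptor, 17 of 17 TNF receptor and TRAF genes were tested. In astrocytes against non-astrocytes, 3 were higher and 10 lower (median log2 difference -0.93, all genes -0.08), against 29.6% higher and 36.8% lower over all genes, while Tnfrsf19 was higher. Tnfrsf1b, a receptor for tumour necrosis factor found on immune cells, differed by -6.07 (limma adjusted p = 1.93e-11), Tnfrsf21, death receptor 6, by -2.69 (1.52e-10) and Tnfrsf11a, the receptor RANK, by -3.06 (8.91e-10). Against bulk tissue 7 were higher and 6 lower (median 0.42), among them Traf6 (1.24, limma adjusted p = 3.12e-07), Tnfrsf1a (2.07, 7.37e-07) and Traf3 (-1.69, 1.02e-07). Between the astrocyte layers, as a description, Tnfrsf21 averaged 1825 in UL and 1130 in DL, and Traf4 477 in UL and 343 in DL. Ngfr, the low-affinity neurotrophin receptor, averaged 14.9 in UL and 39.0 in DL, and Tnfrsf10b 720 in UL and 908 in DL. These were the genes of the list without overlap, a pattern that 16.0% of all genes showed (8.7% higher and 7.31% lower in UL).

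Of the SRC kinase genes, 8 of the 10 tested were lower in astrocytes than in non-astrocytes and 1 was higher, against 36.8% and 29.6% of all genes (Blk did not pass the filter; median log2 difference -1.80, all genes -0.08). Fyn, the SRC family kinase of neurons and glia, differed by -2.24 (limma adjusted p = 2.65e-09), Frk by -3.87 (3.53e-09) and Csk, the kinase that switches SRC kinases off, by -3.40 (5.98e-09). In non-astrocytes 8 of 10 were above bulk tissue and 1 below, and Pag1, the membrane adaptor of Csk, was higher than bulk tissue both in astrocytes (1.67, limma adjusted p = 9.33e-09) and in non-astrocytes (2.64, 2.82e-10). Between the astrocyte layers, 0 of the 10 were without overlap, against 16.0% of all genes.

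While Inka2 was higher in astrocytes than in non-astrocytes, the 7 tested INKA and PAK genes were lower (median log2 difference -1.77, all genes -0.08), a direction called for 36.8% of all genes. Pak3 differed by -5.20 (limma adjusted p = 2.48e-09), Pak5, listed as Pak7, by -5.27 (2.20e-08) and Inka1 by -5.14 (4.82e-08). Against bulk tissue 2 were higher and 5 lower in astrocytes (median -4.05), against 28.8% and 36.1% of all genes, with Pak6 at -6.08 (limma adjusted p = 2.34e-12) and Pak1 at -4.05 (3.21e-12). Pak4, the kinase that INKA proteins inhibit, averaged 621 ± 129 in UL astrocytes and 478 ± 114 in DL astrocytes (SD, n = 3 each), with overlap, and was higher in non-astrocytes than in bulk tissue (log2 difference 2.37, limma adjusted p = 2.98e-07). Only Pak5 of this list was without overlap between the astrocyte layers, at low means of 8.84 in UL and 2.67 in DL. Over all genes, 8.7% were higher in UL astrocytes in this way.

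Of 10 ecto-ADP-ribosyltransferase and extracellular NAD genes, 6 were tested, since Art1, Art2b, Art4 and Art5 did not pass the filter. Art3 was thus the one transferase among those examined that passed it. In astrocytes against non-astrocytes 2 were higher and 2 lower, against 29.6% and 36.8% of all genes. Cd38, an ectoenzyme that consumes NAD, was higher (log2 difference 2.83, limma adjusted p = 3.49e-10), the opposite of Art3. P2rx7, an ATP-gated channel, differed by -2.38 (3.77e-10), and Enpp1, a nucleotide pyrophosphatase, by -2.46 (6.64e-10). Against bulk tissue 3 were higher in astrocytes and 3 in non-astrocytes, with none lower in either. Between the astrocyte layers 0 of the 6 were without overlap (16.0% of all genes).

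Among plakophilin and desmosome genes, 8 of 15 were tested, and Pkp1, Pkp3, Dsg1a, Dsg1c, Dsg4, Dsc2 and Dsc3 did not pass the filter. In astrocytes, 4 were lower than in non-astrocytes and 0 higher, against 36.8% and 29.6% of all genes, while Pkp2 was called higher by its UL libraries. Perp differed by -6.18 (limma adjusted p = 5.04e-09), Pkp4 by -2.20 (4.17e-07) and Dsp, desmoplakin, by -5.22 (3.03e-06). Dsp averaged 2.72 in astrocytes and 87.4 in non-astrocytes. Jup, plakoglobin, which partners plakophilins, averaged 1357 in UL and 915 in DL astrocytes without overlap, the same direction as Pkp2 and as 8.7% of all genes.

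Of the PRUNE and BCH genes, 5 of 6 were tested (not Bnipl), and 4 were lower in astrocytes than in non-astrocytes and 0 higher, against 36.8% and 29.6% of all genes. Atcay differed by -6.28 (limma adjusted p = 6.68e-09), Bnip2 by -0.91 (1.37e-06) and Arhgap1 by -1.18 (1.73e-06). Bnip2 was above bulk tissue in astrocytes (0.80, limma adjusted p = 6.07e-06), unlike Prune2. Between the astrocyte layers Prune1 averaged 245 in UL and 217 in DL and Arhgap1 861 in UL and 620 in DL, both without overlap and opposite to Prune2. Over all genes, 8.7% were higher in UL astrocytes without overlap.

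All 12 MYC and MAX network genes were tested, with 1 higher and 5 lower in astrocytes than in non-astrocytes, and 5 higher and 3 lower than in bulk tissue. Over all genes the shares were 29.6% higher and 36.8% lower in the first comparison, and 28.8% higher and 36.1% lower in the second. Myc, the closest relative of Mycn, was higher in astrocytes than in bulk tissue (log2 difference 2.15, limma adjusted p = 1.66e-07) and averaged 1794 in UL and 1194 in DL astrocytes without overlap, each time the reverse of Mycn. Such a layer pattern, higher in UL astrocytes without overlap, was shown by 8.7% of all genes. Mlxipl, a glucose-responsive relative, was lower in astrocytes than in non-astrocytes (-4.28, limma adjusted p = 7.61e-12), Mnt, a repressor that pairs with Max, was lower too (-1.61, 3.72e-09), and Mxd4 was higher (0.78, 0.000148). In non-astrocytes against bulk tissue, Mycl (2.24, limma adjusted p = 1.03e-07) and Myc (2.47, 1.34e-07) were higher while Mycn was lower. In that comparison 5 were higher and 2 lower, and scaling to total reads made that 10 and 0.

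Genes with the most similar pattern were sought by Pearson correlation of log2(value + 1) over the 14 libraries, which share the 3 fractions, so a high value says mainly that 2 genes have the same order of fractions. Tnfrsf19 was most like Hey1 (r = 0.99), Scel (0.99) and Psph (0.98), and Scel averaged 2015 in UL astrocytes, against 808 in DL astrocytes. Lyn was most like Hspa1a, Rhoj and Notch4 (0.99 each), and 886 genes exceeded 0.9 with it. Art3 was most like Gper1 (0.98), Itgb5 (0.96) and Ppic (0.96). Mycn was most like Megf11, Armcx4 and Scyl2 (0.98 each). Few genes followed Inka2 (15 above 0.9, led by Pccb at 0.94, Dnaja3 at 0.93 and Cds2 at 0.92) or Prune2 (2 above 0.9, Efr3a and Tmem117 at 0.91 each, then Pcsk5 at 0.90). For Pkp2 there were 0 above 0.9, and the closest were Lama3 (0.85), a laminin chain that averaged 300.0 in UL astrocytes, against 79.2 in DL astrocytes, Aqp11 (0.84) and Ppt2 (0.82). Among the 7 themselves, Art3 and Lyn (0.90), Prune2 and Mycn (0.82) and Inka2 and Pkp2 (0.79) were most alike, and Tnfrsf19 and Mycn ran opposite (-0.90).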

How the data were processed

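RNA was measured in 14 libraries, grouped by their titles. The characteristics field names bulk tissue for the UL astrocytes and UL non-astrocytes, against their titles, which were followed. Per the labels' protocols, RNA was amplified with the NuGEN RNA-Seq V2 kit and sequenced as single reads, and which library ran in which lane is not given in the sources used here. The tools, per the submitters' processing notes, were TopHat2 2.0.11, HTSeq 0.6.1p1, CASAVA and DESeq2, with GRCm38. The deposited values are a signal, the counts of each gene after division by a size factor for each library: whole reads were recovered for 100% of values within 1e-06, and edgeR 4.0.16 and DESeq2 1.42.0 were run on them. In the submitters' processing the strand setting of the counting is not given in the sources used here.

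The test was limma 3.58.1 in R 4.3.3 (trend, robust) on log2(value + 1), which understates changes of low genes, with a value of 10 in at least 2 libraries required. A single model held the 6 group means, with 8 residual degrees of freedom, and p-values were adjusted by Benjamini-Hochberg over 22575 genes. The script was tested on simulated data. Coordinates and exon lengths come from GENCODE M21, matched for 32007 identifiers. Alternatives were total-read scaling, pseudocounts of 0.5 and 10, no filter, fitting only the compared groups, a replicate block, edgeR, DESeq2 and leaving out each library.

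The 7 genes, the marker lists and the lists of relatives were chosen with earlier results of these data known. Named relatives are up to 3 genes per list and comparison with the smallest p among those called, and the genes with the 3 highest correlations. Those described by their astrocyte layers (Tnfrsf21, Traf4, Ngfr, Tnfrsf10b, Jup, Prune1, Arhgap1, Myc, Pak4, Pak5), or by overlap just outside the rule (Inka1, Dsp), were chosen after their values were seen. Replicate numbers come from the titles. Deviations from group means over 13734 genes correlated at 0.223 to 0.342 in the 3 same-numbered astrocyte pairs and at -0.217 to -0.0605 in the 6 other pairs, at 0.698 in non-astrocytes and at 0.243 in bulk tissue. Centring on group means ties the other pairs to the same-numbered ones, as exact negatives in groups of 2 libraries, so they add no separate evidence. In bulk tissue, replicate 1 of both layers also held few Eif2s3y reads, whose part in the correlation was not tested. The numbers were treated as pairs in the block only.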

Additional observations from a re-analysis of the deposited data

Results flagged for a closer look

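Mycn differed in the direction of its layer difference between astrocytes and bulk tissue. All 3 UL astrocyte libraries were below all 3 DL astrocyte libraries (1.91, 0 and 0, against 14.2, 8.51 and 7.40 normalised read counts), and both UL bulk libraries were above both DL bulk libraries (352.0 and 463.8, against 260.8 and 242.0). The astrocyte log2 difference minus that of bulk tissue was -3.58, a size set by the pseudocount of 1: with 10, the differences were -0.90 in astrocytes and 0.66 in bulk tissue. The difference was not tested, because the astrocyte layers were used to choose the gene, and the astrocyte values rest on 2 and 25 reads.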

How the results depend on the processing

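Between layers of non-astrocytes, limma called 1 gene. The count was 4 with a pseudocount of 10, 13 with no filter, 33 with the replicate block, 0 with only the compared groups, 7 with edgeR and 138 with DESeq2, and 0 to 12 when a library was left out. In bulk tissue 103 genes were called, against 340 with a pseudocount of 10, 261 with the block, 1242 with only the compared groups, 170 with edgeR and 428 with DESeq2, and 11 to 214 without a library. Of the 7 genes, 0 were called in bulk tissue, 1 with the block, 4 with only the compared groups and 2 with DESeq2, and 0 to 1 without a library, where DL astrocytes replicate 2 gave the 1 (Prune2, adjusted p = 0.0491). Pairing changed no other call of the 7. In non-astrocytes the layer differences turned in sign for Tnfrsf19 (0.057) and Lyn (0.085) under total-read scaling, and for Lyn under edgeR (0.012) and DESeq2 (0.0018). Without a library they ran from -0.23 to 0.15 for Tnfrsf19, -0.21 to 0.21 for Art3, -0.24 to 0.21 for Lyn, -0.32 to 0.082 for Prune2 and -0.20 to 0.48 for Mycn, and in bulk tissue from -0.019 to 0.54 for Art3 and -0.00056 to 0.16 for Lyn. Between fractions, Tnfrsf19 in non-astrocytes against bulk tissue turned to 0.052 under total-read scaling, did not pass with no filter (adjusted p = 0.0529) and lost its call in 10 of the 14 leave-outs. Total-read scaling moved the median of all genes from -0.04 to 0.33 in that comparison, from -0.08 to -0.26 for astrocytes minus non-astrocytes and from -0.10 to 0.08 for astrocytes minus bulk tissue. A pseudocount of 10 gave layer differences in astrocytes of 2.16 for Pkp2 and -0.90 for Mycn. The causes were not tested. Low reads limit Pkp2 and Mycn, and groups of 2 libraries limit the layer tests.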
